A study of Mus musculus with 6 samples.

Results

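The tripartite motif (TRIM) genes were examined in the RNA-Seq of regulatory T cells (Tregs) with and without Zfp335. All rows of the deposited table whose symbol begins with Trim followed by a digit were taken, which gave 44 of 13709 genes. Tregs had been sorted as CD4+YFP+CD25+ cells from 2-week-old C57BL/6 mice, with 3 samples per genotype. WT mice carried Foxp3Cre, in which a YFP-Cre fusion is made from the Foxp3 locus, and KO mice carried the same allele with Zfp335 fl/fl, so that Zfp335 is deleted only in cells that have switched on Foxp3. The labels name both lymph nodes and spleen as the source, and they do not say whether a sample was a single mouse or a pool, so p-values measure the spread between these samples, which may be technical. By the study's account, KO mice develop systemic inflammation, so the deletion inside the cell and the inflamed surroundings cannot be told apart in these samples.

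TRIM proteins share an N-terminal arrangement of a RING finger, B-boxes and a coiled coil, and most of them are E3 ubiquitin ligases. What a member binds is set largely by its C-terminal domain, which also defines the classes of the family: a PRY-SPRY domain in the largest class, PHD and bromodomains in the transcriptional corepressors, NHL repeats, a COS box in the members that bind microtubules, or other single domains. Many members act in antiviral defense, where they ubiquitinate or scaffold the sensors of viral RNA and DNA, and some are themselves induced by interferons. Others repress transcription or act in protein quality control and cell division.

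The samples held 32032631 to 40728419 counts each, and a count of 3, taken as the floor of detection, corresponded to 0.0747 to 0.0913 CPM (counts per 1000000 counts). WT replicate 3 stood apart from the other WT samples. The median chi-square of its counts against WT replicates 1 and 2 was 25.09 and 24.46 times that of sampling noise, against 9.94 for WT replicates 1 and 2 and 5.24 to 6.06 among KO samples. Results are therefore given with and without it where it matters. Zfp335 was 94.3 to 103 CPM in WT and 37.0 to 40.2 CPM in KO (edgeR adjusted p 2.14e-05), in the direction of the labels. All 6 Treg markers examined were present in every sample, at a summed 3927 to 5104 CPM in WT and 3309 to 3405 CPM in KO. Markers of B cells summed to 18.0 to 20.1 CPM in WT and 12.1 to 12.6 CPM in KO over 5 genes, and those of CD8 T cells to 9.32 to 13.2 and 12.0 to 12.7 CPM over 2 genes. Markers of myeloid cells summed to 41.1 to 53.3 CPM in WT and 76.8 to 88.3 CPM in KO over 6 genes, of which S100a8 and S100a9 had no count in WT. In its single-cell data the study reports high S100a8 and S100a9 in a Treg subset that accumulated in KO mice. These transcripts are therefore not specific to other cell types here. Natural killer markers summed to 3.59 to 5.83 and 14.9 to 16.2 CPM over 3 genes, and erythroid markers to 23.3 to 101 and 43.2 to 49.8 CPM over 5 genes. The part of these cells in the results below was not tested.

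The members that are known as interferon-inducible lie mostly together in the genome. Of the 44 TRIM genes, 14 are on chromosome 7, and 8 of these (Trim34a, Trim5, Trim12a, Trim34b, Trim12c, Trim30c, Trim30a and Trim30d) form a cluster at chr7:104244457-104507849 (mm10). All 8 were assigned to the PRY-SPRY class from a fixed list, without a check of their protein sequences. All are in the list of 13 interferon-inducible TRIM genes used here, together with Trim14, Trim21, Trim25, Trim26 and Trim56. Their promoters are shown because WT replicate 3 was the highest WT sample for 12 of the 13, as described below. Trim5, which has the motif, was the exception. Whether the motif bears on these values was not tested. RefSeq windows from 250 bases before to 50 bases after the transcription start (GRCm38.p6) were found for 35 of the 44 genes and were searched on both strands for the core of the interferon-stimulated response element, through which interferon-activated factors act. The core was taken as GAAA, any 2 bases and GAAA again, which reads TTTC, any 2 bases and TTTC on the other strand. It was present for 8 of the 12 interferon-inducible TRIM genes with a window (66.7%) and for 1 of the 23 other TRIM genes (4.35%), which was Trim2. Among all tested genes with a window it was present for 405 of 10653 (3.8%), and among 26 interferon-stimulated genes outside the family for 13 (50%). The stretches around the motif are given from 5′ to 3′ on the strand of the gene, with the motif in capitals, with up to 25 bases on each side. The Trim12c stretch ends at the base before the transcription start, and those whose motif lies after the start are limited to 30 bases.
Trim5: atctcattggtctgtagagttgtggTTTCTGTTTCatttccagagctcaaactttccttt
Trim12c: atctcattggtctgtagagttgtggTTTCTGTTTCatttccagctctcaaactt
Trim12a: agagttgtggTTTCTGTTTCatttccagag
Trim30a: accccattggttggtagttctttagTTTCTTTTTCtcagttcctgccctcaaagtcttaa
Trim30d: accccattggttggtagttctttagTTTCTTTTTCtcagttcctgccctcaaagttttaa
Trim34a: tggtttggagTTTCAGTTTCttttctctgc
Trim21: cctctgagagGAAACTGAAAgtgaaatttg
Trim26: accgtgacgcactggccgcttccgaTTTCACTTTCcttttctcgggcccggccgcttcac

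On the minus strand lie the stretches of Trim5 (chr7:104288121-104288180), Trim12c (chr7:104353350-104353403), Trim12a (chr7:104315466-104315495), Trim30a (chr7:104465195-104465254), Trim30d (chr7:104507856-104507915) and Trim21 (chr7:102565450-102565479). On the plus strand lie those of Trim34a (chr7:104244457-104244486) and Trim26 (chr17:36836961-36837020). The motif began 49, 29, 36 and 41 bases before the start in Trim5, Trim12c, Trim30a and Trim30d, and 160 bases before it in Trim26. It began on base 11 after the start in Trim12a and Trim34a, and on base 14 after it in Trim21. The Trim30a and Trim30d stretches differed at 1 of 60 bases, which shows how close these copies are. Trim21 and Trim26 each held a second match that overlaps the first. Trim30a held a further match on base 3 after another of its starts (chr7:104446104-104446133), which is not printed. The windows of Trim25, Trim56, Trim30c and Trim34b held no match, and Trim14 had no window.

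Expression of the family was compared between KO and WT on the counts of the whole table with edgeR's quasi-likelihood test, with Benjamini-Hochberg adjustment over all genes tested. Calls required a fold change over 1.5 together with p under 0.05 and adjusted p under 0.1. Of the 44 TRIM genes, 43 were tested. Trim72, with 5 to 25 counts per sample, fell below the low-count filter. Trim36, Trim16, Trim66 and Trim37 rose in KO, and Trim65, Trim3, Trim32, Trim5, Trim62 and Trim14 fell, so that 10 of 43 (23.3%) were called. Over all genes tested the called share was 24.4%, with 11.9% higher and 12.5% lower, so the family's share was near the background. In mm10 the genes that rose span Trim16 (chr11:62820231-62850808, plus strand), Trim66 (chr7:109449006-109508134, minus strand) and Trim37 (chr11:87127077-87220683, plus strand), with Trim36 on chromosome 18. Those that fell span Trim65 (chr11:116121846-116131128, minus strand), Trim3 (chr7:105604463-105633571, minus strand), Trim32 (chr4:65604986-65616238, plus strand), Trim5 (chr7:104263386-104288094, minus strand), Trim62 (chr4:128883580-128911328, plus strand) and Trim14 (chr4:46493781-46536141, minus strand). The median log2 fold change of the tested members was -0.15, against -0.04 over all genes, and without WT replicate 3 it was 0.06. WT and KO samples were fully separated for 21 of the 43 members (53.8% over all genes), with KO higher for 8 (26.2% over all genes) and lower for 13 (27.6% over all genes). When an adjusted p under 0.05 sufficed without regard to fold, 16 of the 43 members passed, where 38.6% of all genes did. These are levels of RNA in bulk samples, in which a smaller share of cells that express a gene and less RNA per cell cannot be told apart.

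**Figure D1:**
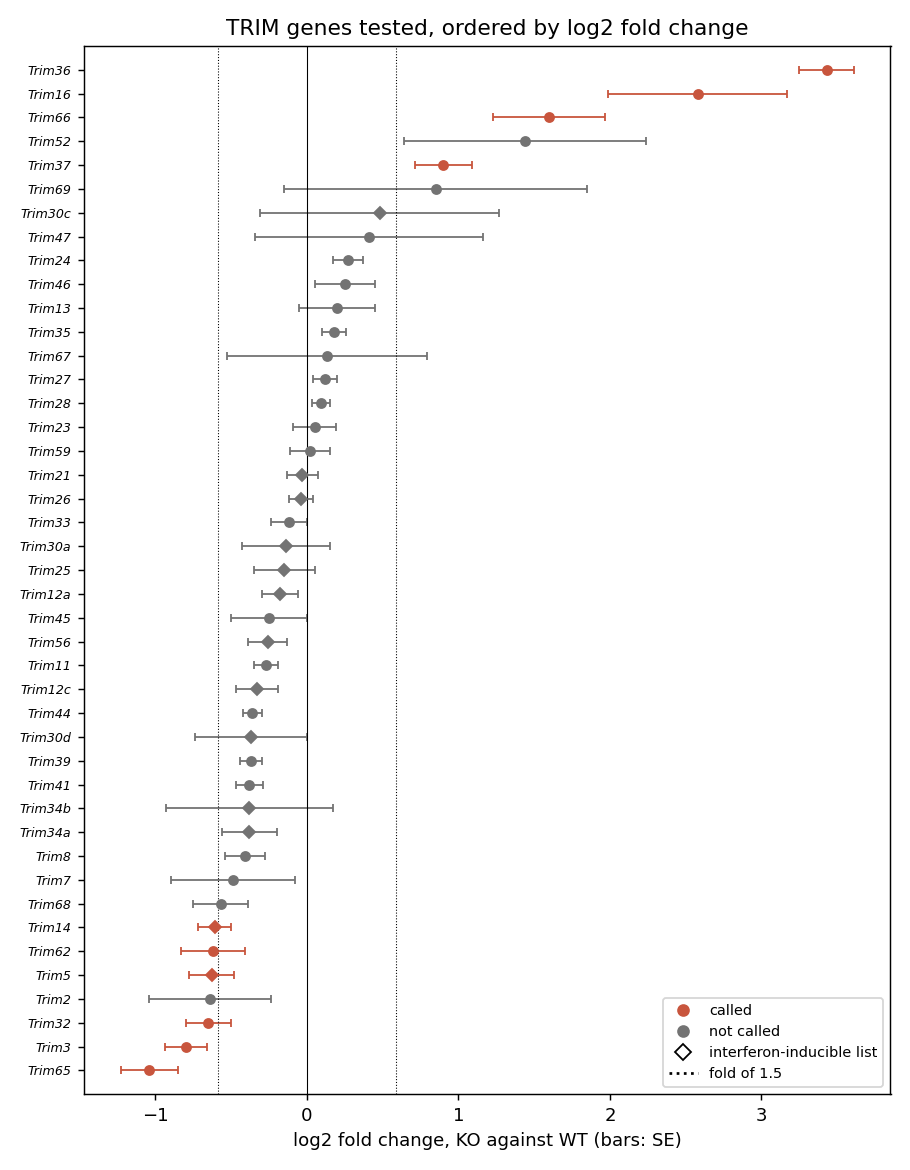
Log2 fold change of each of the 43 TRIM genes tested (KO against WT, horizontal axis), ordered by value, with bars for the SE of the model. Red symbols are the 10 called genes, diamonds are members of the interferon-inducible list, and dotted lines mark a fold of 1.5. The values run from -1.04 (Trim65) to 3.43 (Trim36), and the wide bars belong to genes with few counts, such as Trim52 and Trim69.

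The largest rise was in Trim36, which encodes a COS box ubiquitin ligase that associates with microtubules. The WT samples held 47, 33 and 41 counts of it, and the KO samples 451, 517 and 455, each in the order of the replicate numbers, as in all lists of values here. The KO samples lay within a narrow range far above all WT samples. The mean rose from 1.17 ± 0.146 to 12.7 ± 0.314 CPM (SD, n = 3), a log2 fold change of 3.43 (SE 0.18, edgeR adjusted p 1.76e-05). The values of the 6 fits that each left out a sample ran from 3.33 to 3.50. The other COS members in the table, Trim46 and Trim67, were not called (log2 fold changes 0.25 and 0.13).

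Trim16 encodes a member without a RING finger that takes part in the autophagy of damaged endomembranes. It was 0.272, 0.609 and 1.83 CPM in WT and 5.80, 5.15 and 5.19 CPM in KO. WT replicate 3 was the highest WT sample, but it lay below every KO sample. Its log2 fold change of 2.58 (SE 0.59, edgeR adjusted p 0.0108) became 3.62 (SE 0.37, edgeR adjusted p 1.18e-06) when WT replicate 3 was left out. The gene overlaps Fbxw10, and part of its counts may belong to this neighbor. Trim66, a relative of the TRIM corepressors, was low in all samples, with 19 to 22 counts in each WT sample (0.571 to 0.598 CPM) and 1.86, 2.14 and 1.30 CPM in KO. All KO samples exceeded all WT samples (log2 fold change 1.60, SE 0.37, edgeR adjusted p 0.0118).

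Trim37 was the most abundant of the 4 genes that rose. It encodes a ligase with a MATH domain that acts in peroxisome import and in the control of centriole assembly. It was 28.1, 24.4 and 16.0 CPM in WT and 41.2, 40.3 and 46.2 CPM in KO. WT replicate 3 was the lowest sample, and the groups did not overlap. The mean rose from 22.8 ± 6.17 to 42.6 ± 3.18 CPM (SD, n = 3; log2 fold change 0.90, SE 0.19, edgeR adjusted p 0.00778). Leaving out WT replicate 3 brought the log2 fold change to 0.69. Beside it, 16 genes of proliferating cells summed to 1604, 1598 and 831 CPM in WT and to 4457 to 4618 CPM in KO. All 16 rose in KO, and WT replicate 3 was the lowest of the 6 samples for each of them. Rrm2, Bub1 and Ccna2 had the largest changes (log2 fold changes 2.46, 2.18 and 2.11), and Mki67 was at 2.09. The part of proliferation in the values of Trim37 was not tested.

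Among the genes that fell, Trim65 had the largest change. It encodes a PRY-SPRY ligase known to ubiquitinate MDA5, a cytosolic sensor of double-stranded RNA. It was 20.4, 22.6 and 33.6 CPM in WT and 12.0, 12.5 and 12.7 CPM in KO. The KO samples were nearly equal, and each was below each WT sample. The mean fell from 25.5 ± 7.09 to 12.4 ± 0.346 CPM (SD, n = 3; log2 fold change -1.04, SE 0.19, edgeR adjusted p 0.00375). WT replicate 3 held the highest value, and leaving it out gave -0.80 (SE 0.11, edgeR adjusted p 2.55e-05). Trim65 overlaps Trim47, and 4.5% of the 50-base windows of its transcript also occur in Trim47, which was under 2 CPM in every sample.

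Both called NHL members fell. Trim3, a ligase best known from the brain, was 11.7, 11.8 and 11.7 CPM in WT and 6.30, 7.59 and 6.30 CPM in KO, without overlap. The mean fell from 11.8 ± 0.0818 to 6.73 ± 0.748 CPM (SD, n = 3; log2 fold change -0.80, SE 0.14, edgeR adjusted p 0.00305). Trim32, a ligase mutated in a limb-girdle muscular dystrophy and also known to ubiquitinate the DNA-sensing adaptor STING, was 15.9, 19.7 and 15.6 CPM in WT and 10.5, 12.4 and 9.76 CPM in KO. Its groups did not overlap (log2 fold change -0.65, SE 0.15, edgeR adjusted p 0.0106), but it was close to the fold cutoff and under it without WT replicate 2 (-0.54) or KO replicate 3 (-0.58). Trim32 lies within the span of Astn2. The third NHL member, Trim2, was 1.87, 1.04 and 2.31 CPM in WT and 0.985, 1.37 and 0.993 CPM in KO, with overlap, and was not called (edgeR adjusted p 0.251). It passed without WT replicate 2 (-0.91) and was at -0.39 without WT replicate 3.

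The other genes that fell were PRY-SPRY members near the fold cutoff. Trim14, which lacks a RING finger and scaffolds the RNA-sensing adaptor MAVS, was 67.4, 57.5 and 71.3 CPM in WT and 41.0, 40.4 and 46.9 CPM in KO. All KO samples were below all WT samples (log2 fold change -0.61, SE 0.11, edgeR adjusted p 0.00301). It was under the fold cutoff without WT replicate 3 (-0.55), KO replicate 1 (-0.58) or KO replicate 2 (-0.57), with edgeR adjusted p of 0.000108 to 0.0203, and it overlaps Nans. Trim5, the mouse namesake of the primate factor that restricts retroviral capsids, was 47.0, 50.6 and 33.9 CPM in WT and 29.9, 27.3 and 27.9 CPM in KO. Here WT replicate 3 was the lowest WT sample, still above every KO sample (log2 fold change -0.63, SE 0.15, edgeR adjusted p 0.012). The value was -0.57 without WT replicate 1 and -0.52 without WT replicate 2, both under the cutoff, and -0.79 without WT replicate 3. Of the 50-base windows of Trim5, 38.1% also occur in other genes, with 24.7% in Trim12c, so its counts are uncertain.

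Trim62, a ligase of the signaling adaptor CARD9, was 13.1, 13.0 and 21.3 CPM in WT and 11.1, 9.51 and 10.2 CPM in KO. The groups did not overlap, and WT replicate 3 lay well above the other WT samples. Trim62 changed by -0.62 on the log2 scale over all samples (SE 0.21, edgeR adjusted p 0.0489) and by -0.35 without WT replicate 3 (SE 0.13, edgeR adjusted p 0.0372). It was not called with the replicate block (-0.58, edgeR adjusted p 0.0602) or without KO replicate 1, KO replicate 2 or KO replicate 3 (-0.68, -0.56 and -0.61, edgeR adjusted p 0.101 to 0.15). Trim68, a ligase of the same class known as a coactivator of the androgen receptor, was 22.9, 15.8 and 15.3 CPM in WT and 13.1, 12.7 and 10.6 CPM in KO. All KO samples were below all WT samples, and the log2 fold change of -0.57 was just under the cutoff (SE 0.18, edgeR adjusted p 0.04). It passed without WT replicate 2 (-0.66), WT replicate 3 (-0.68), KO replicate 1 (-0.63) or KO replicate 2 (-0.61), and moved further from the cutoff without WT replicate 1 (-0.36), its highest sample, or KO replicate 3 (-0.48).

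**Figure D2:**
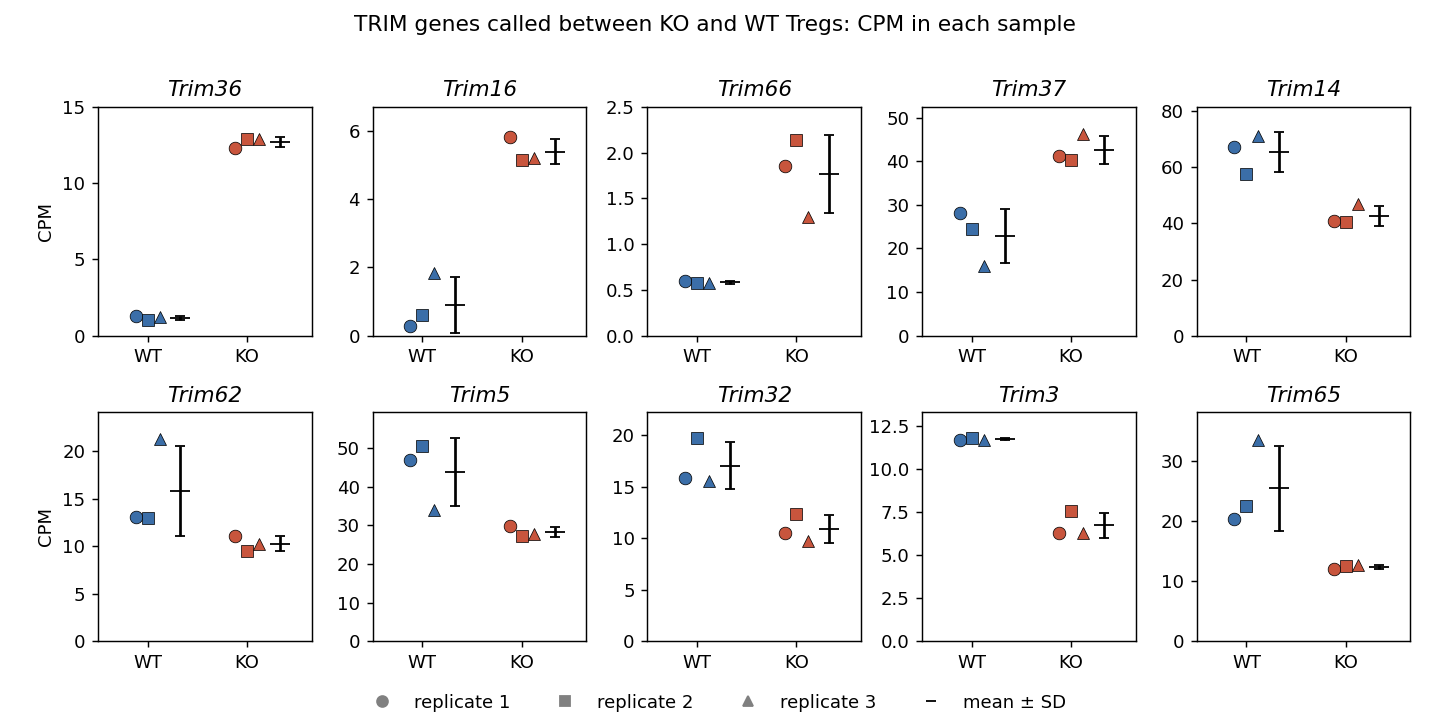
CPM of the 10 called TRIM genes in each sample (vertical axis, starting at 0), with symbols for the replicate number, blue for WT and red for KO, and the mean ± SD over 3 samples beside them. In none of the panels do the groups overlap. WT replicate 3 (triangle) is the highest WT sample for Trim16, Trim14, Trim62 and Trim65 and lies lowest by a clear distance for Trim37 and Trim5.

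The interferon-inducible TRIM genes were then compared as a list. Of the 13 genes, 12 had a log2 fold change below 0 and 1 above it, with a median of -0.26, and Trim5 and Trim14 were called lower. WT replicate 3 was the highest WT sample for 12 of 13, Trim5 being the exception, and it was above every KO sample for all 13. Over all genes tested it was the highest WT sample for 39.2%, and over the 31 other TRIM genes for 15. It was the highest of all 6 samples for 12 of the 13, for 8 of the 31 and for 3441 of the 13594 genes tested. Summed over the 13 genes, expression was 1067 and 1038 CPM in WT replicates 1 and 2, 1537 CPM in WT replicate 3, and 1063, 1052 and 1020 CPM in KO. WT replicates 1 and 2 and the KO samples were thus at about the same summed level, and WT replicate 3 alone was above it.

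Trim30a, an inhibitor of NF-κB signaling from the chromosome 7 cluster, was 122, 119 and 266 CPM in WT and 151, 162 and 147 CPM in KO. WT replicate 3 was 2.21 times the mean of the other WT samples, and the KO samples lay between. With all samples its change was -0.14 (SE 0.29, edgeR adjusted p 0.747). Leaving out WT replicate 3 turned it to 0.35 (SE 0.06, edgeR adjusted p 0.000258), under the fold cutoff. Its copy Trim30d behaved alike, at 26.7, 24.3 and 70.2 CPM in WT and 31.7, 29.2 and 32.5 CPM in KO. Its log2 fold change was -0.37 with all samples and 0.28 without WT replicate 3 (edgeR adjusted p 0.469 and 0.0193). Trim30c, at 7, 18 and 83 counts in WT and 53, 67 and 48 counts in KO, turned from not called (0.48, SE 0.79, edgeR adjusted p 0.676) to called higher without WT replicate 3 (2.02, SE 0.57, edgeR adjusted p 0.00832).

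Trim25, the ligase that activates the RNA sensor RIG-I, was 131, 126 and 218 CPM in WT and 149, 143 and 137 CPM in KO. It changed by -0.15 on the log2 scale (edgeR adjusted p 0.594), and 0.15 without WT replicate 3 (edgeR adjusted p 0.0543). Trim56, a ligase in the STING pathway, was 195, 183 and 254 CPM in WT and 185, 178 and 164 CPM in KO (-0.26, edgeR adjusted p 0.14). In both genes the KO range came close to or overlapped WT replicates 1 and 2, and WT replicate 3 was the highest of the 6 samples. Trim34a, at 51.7, 52.8 and 81.3 CPM in WT and 50.2, 51.5 and 41.2 CPM in KO, was lower in every KO sample than in any WT sample but by little (-0.38, edgeR adjusted p 0.145). Without WT replicate 3, Trim56 was at -0.11 and Trim34a at -0.14. Trim34b was under 2 CPM in every sample, and 59.0% of its 50-base windows also occur in Trim34a. Of the windows of Trim34a, 41.3% also occur in Trim34b, so the counts of both genes are uncertain.

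The remaining genes of the list were not called. Trim12a and Trim12c, further copies in the cluster, were 113 to 155 and 87.8 to 126 CPM in WT and 111 to 114 and 78.7 to 87.8 CPM in KO (log2 fold changes -0.18 and -0.33, edgeR adjusted p 0.256 and 0.0962). Trim21, the cytosolic antibody receptor, was 67.0 to 87.5 CPM in WT and 72.6 to 76.5 CPM in KO (-0.03). Trim26, which lies in the major histocompatibility region of chromosome 17, was 144 to 170 and 150 to 153 CPM (-0.04). For these 4 genes the ranges of WT and KO overlapped, and the log2 fold changes without WT replicate 3 were -0.03, -0.15, 0.08 and 0.03. Of the 50-base windows of Trim12c, 32.7% also occur in other genes, with 24.5% in Trim5, so its counts and its level are uncertain.

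Interferon-stimulated genes outside the family were examined beside them. Of 36 listed genes, 34 were in the table, and WT replicate 3 was the highest WT sample for all 34, at 1.28 to 9.28 times the mean of the other WT samples. They summed to 2394, 2365 and 4834 CPM in WT and to 4209, 4152 and 4102 CPM in KO. Unlike the summed TRIM level, the KO sums lay far above WT replicates 1 and 2. With all samples 5 of 34 genes were called, all higher (median log2 fold change 0.32), with the largest changes in Oasl2, Oas3 and Lgals3bp (1.41, 1.39 and 0.79). Leaving out any of the other 5 samples left 1 called. Without WT replicate 3, 25 of 34 were called, all higher (median 0.92), where 26.8% of all genes were called and 13.6% called higher. In the same fit, 2 of the 13 interferon-inducible TRIM genes were called, Trim30c higher and Trim5 lower, with a median of 0.03. Every KO sample was above WT replicates 1 and 2 for 33 of the 34 genes outside the family and for 4 of the 13 TRIM genes (Trim25, Trim30a, Trim30c and Trim30d), where this held for 33.7% of all genes tested. For 3 of the 13 (Trim5, Trim14 and Trim34a) every KO sample was below both, where this held for 33.9% of all genes. The difference between these lists was not tested.

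**Figure D3:**
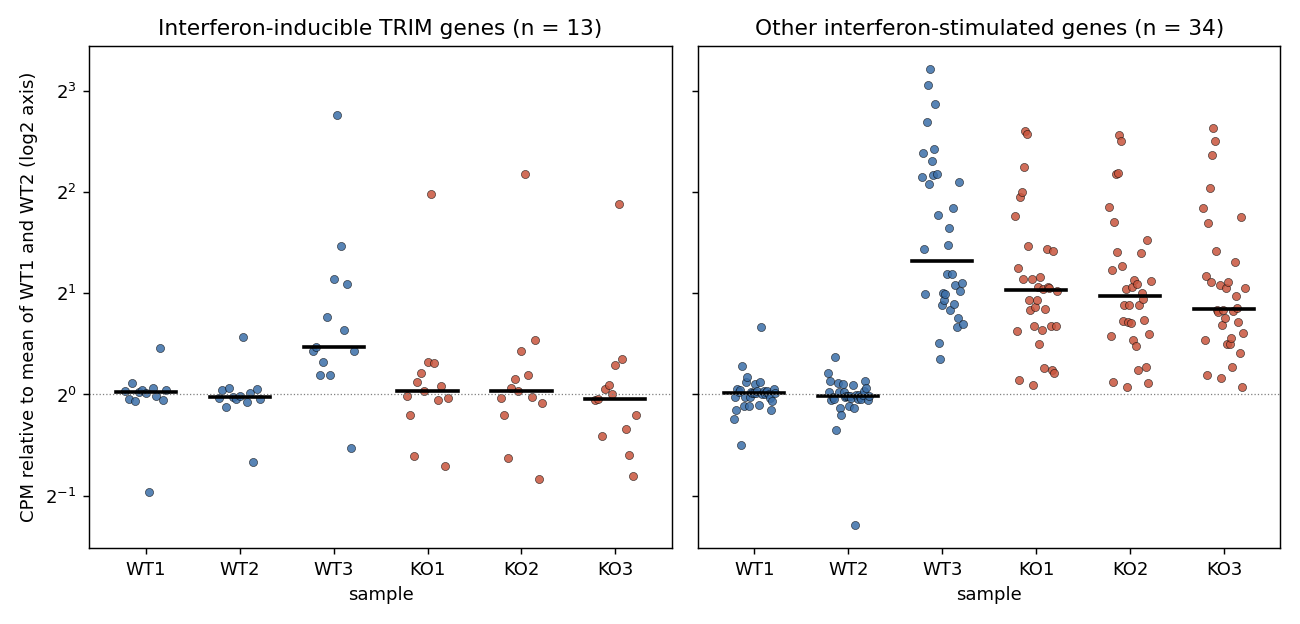
CPM of each gene relative to its mean in WT replicates 1 and 2 (log2 axis) in each of the 6 samples, for the 13 interferon-inducible TRIM genes (left) and 34 other interferon-stimulated genes (right). Points are genes and bars are medians. WT3 is high in both panels, with a median ratio of 1.39 on the left and 2.49 on the right, while the KO samples lie around 1 on the left and above 1 on the right.

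**Figure D4:**
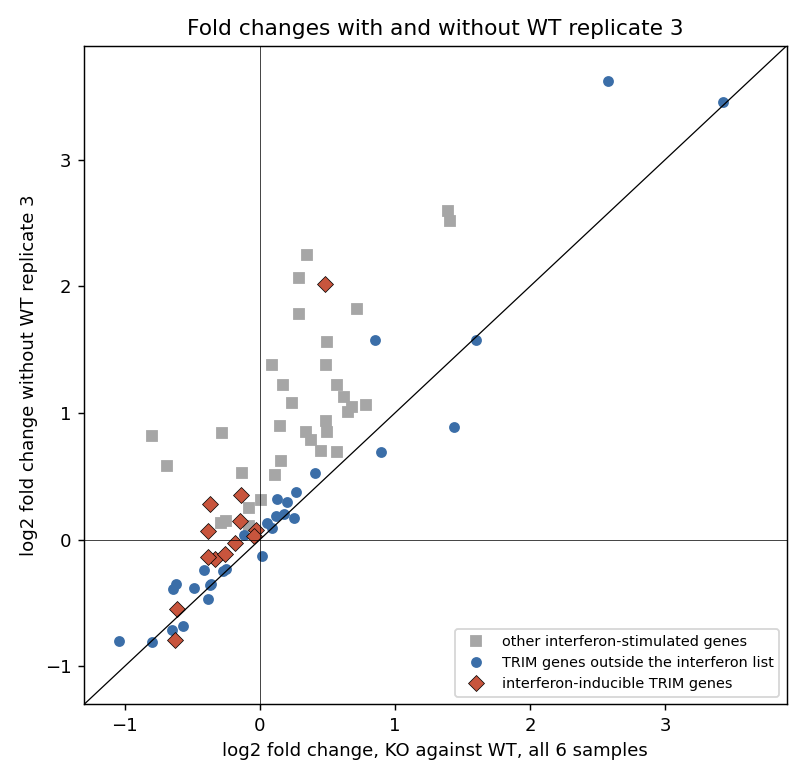
Log2 fold change of KO against WT with all 6 samples (horizontal) and without WT replicate 3 (vertical). Red diamonds are interferon-inducible TRIM genes, blue circles other TRIM genes, and gray squares other interferon-stimulated genes. All 34 gray squares lie above the line of equal values, with medians of 0.32 and 0.92, and the red diamonds move from a median of -0.26 to 0.03.

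The spread among replicates was mostly in WT. The SD was larger in WT than in KO for 34 of the 44 TRIM genes, and for all 13 of the interferon-inducible list. The matching share over all genes was not computed. Over all genes tested, WT pairs differed by 9.94 to 25.09 times sampling noise and KO pairs by 5.24 to 6.06 times. Larger differences among WT samples were thus also seen over all genes, by a measure other than the SD. Whether the SD counts of the family differ from those of all genes was not tested. Among the 29 TRIM genes that averaged 10 CPM or more in WT, the highest KO sample was 1.02 to 1.27 times the lowest, and the highest WT sample 1.01 to 2.89 times the lowest. The largest of these WT ratios was that of Trim30d.

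Levels were compared between genes as CPM per kilobase of annotated exon, averaged over all 6 samples. Trim28, the corepressor that zinc finger proteins recruit to silence retroelements, had the highest level, at 63.2 CPM per kilobase, followed by Trim30a (39.2), Trim59 (33.3), Trim25 (26.2) and Trim12c (24.7). In KO alone Trim26 (22.1) was slightly above Trim12c (21.9), and in WT alone Trim12c and Trim25 were level at 27.5. The median of the 44 genes was 7.04, and the lowest was Trim67 (0.0485). The 4 genes that rose were all below this median, with means over all samples of 4.53 for Trim37, 1.41 for Trim36, 0.688 for Trim16 and 0.116 for Trim66.

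Among the corepressors with PHD and bromodomains, Trim28 was 263, 246 and 254 CPM in WT and 275, 271 and 269 CPM in KO. All KO samples were above all WT samples, by a small amount that did not pass the test (log2 fold change 0.09, SE 0.06, edgeR adjusted p 0.261). Trim24, a coregulator of nuclear receptors, was 82.3, 85.6 and 106 CPM in WT and 107, 113 and 109 CPM in KO. It passed on adjusted p but not on fold (0.27, SE 0.10, edgeR adjusted p 0.0683). Trim33, which binds Smad proteins of the TGF-β pathway, was 85.5, 86.7 and 117 CPM in WT and 87.3 to 90.0 CPM in KO (-0.12, edgeR adjusted p 0.496). Of 12 known partners of Trim28, 3 were called. Uhrf1, which also rises in dividing cells, and Cbx5, a heterochromatin protein, were higher (1.69 and 0.67), and the nucleosome remodeler Chd3 was lower (-0.79). Their median was 0.01. Without WT replicate 3, 2 of the 12 were called, and Cbx5 was not (0.51).

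Several genes that were not called had an adjusted p under 0.1 with a fold change below 1.5. When an adjusted p under 0.05 sufficed without regard to fold, 16 of the 43 members passed, 12 of them lower in KO. Over all genes 38.6% passed, with 2610 higher and 2634 lower. Whether the family differed from all genes in direction was not tested. Trim44, a member without a RING finger, was 136, 129 and 138 CPM in WT and 108, 104 and 101 CPM in KO (-0.36, SE 0.06, edgeR adjusted p 0.00328). Trim39, a regulator of the cell cycle and of apoptosis, was 84.2, 78.6 and 83.1 CPM in WT and 65.9, 61.7 and 63.0 CPM in KO (-0.37, SE 0.07, edgeR adjusted p 0.00403). In both genes the replicates were close together and the groups did not overlap. Trim41, which overlaps Rack1, Trim11 and Trim8, a regulator of cytokine signaling, also had no overlap, with log2 fold changes of -0.38, -0.27 and -0.41 (edgeR adjusted p 0.0151, 0.0262 and 0.0459). Trim8 was at -0.24 without WT replicate 3. The other uncalled genes with an adjusted p under 0.1 were Trim12c, Trim24 and Trim68, given above.

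Some members could hardly be compared. A total of 14 of the 44 genes had a mean under 5 CPM, among them the called genes Trim16 and Trim66. Trim52 was 15, 30 and 1 counts in WT and 43, 51 and 43 counts in KO, without overlap, and was not called (1.44, SE 0.80, edgeR adjusted p 0.199), though it passed without WT replicate 2 (2.43, edgeR adjusted p 0.0656) and was at 0.89 without WT replicate 3. Trim7, which is low in Tregs at 1.03, 2.77 and 2.34 CPM in WT and 1.29, 1.62 and 1.47 CPM in KO, was not called (-0.49) but passed without WT replicate 1 (-0.81), against -0.21 without WT replicate 2. Trim69, with 0, 10 and 15 counts in WT and 29, 11 and 10 in KO, and Trim47, Trim67 and Trim34b had SEs of 0.55 or more on the log2 scale, so differences of the size seen were not detectable at this depth.

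The remaining members did not pass. Trim59, a membrane-anchored ligase, was 114, 131 and 88.4 CPM in WT and 106, 115 and 117 CPM in KO (0.02). Trim27 and Trim35, PRY-SPRY ligases that act in apoptosis and immune signaling, were at 0.12 and 0.18, Trim13 and Trim23 at 0.20 and 0.05, and Trim45 at -0.25. By class as listed, calls were made for 5 of 24 PRY-SPRY genes tested, 2 of 3 NHL genes, 1 of 3 COS genes, 1 of 4 PHD-bromodomain genes, 1 of 5 genes with other single domains and 0 of 4 without such a domain. Among these last 4 genes (Trim8, Trim44, Trim52 and Trim56), 2 had an unadjusted p under 0.05, and DESeq2 called 0 as well.

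Genes that work with the family were compared from fixed lists. Family members under other symbols were not called. Pml, the organizer of nuclear bodies and an interferon-induced gene, was 110, 96.4 and 219 CPM in WT and 175, 187 and 173 CPM in KO (0.33, edgeR adjusted p 0.391). Pml and the low gene Mid2 passed as higher once WT replicate 3 was left out (0.78 and 1.26, edgeR adjusted p 2.85e-07 and 0.019). Mid1 was at 0.35. Of 11 sensing and signaling partners in the table, Ikbke, a kinase of the interferon pathway, was the gene called, at 480 to 543 CPM in WT and 302 to 326 CPM in KO (-0.71, edgeR adjusted p 0.000355), and the median was 0.11. Ifih1, which encodes the Trim65 substrate MDA5, was 35.4, 40.6 and 86.9 CPM in WT and 82.0 to 84.9 CPM in KO (0.62, edgeR adjusted p 0.149), and was called higher without WT replicate 3 (1.13, edgeR adjusted p 1.32e-08).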

How the data were processed

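RNA-Seq of 3 WT and 3 KO samples was used. Per the study's methods, the authors filtered reads with SOAPnuke, mapped them with HISAT2 to mm10, reporting a single position for each read, and ran StringTie for quantification. The deposited file holds whole-number counts per gene, not normalized. How they were obtained, the strand setting and the annotation were not given in the sources used here. No listed gene had fewer than 60 counts in total over its 6 samples, so low genes had been removed. Reads of near-identical copies may have been placed on the wrong gene, and overlapping genes may have been mixed if strand was not used.

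From these counts, 13594 genes passed filterByExpr (minimum count 10, edgeR 4.0.16, R 4.3.3), were scaled by TMM and tested by the quasi-likelihood F-test over all 6 samples with no covariate. The cutoffs for calls follow the study's methods. Adjusted p-values are two-sided Benjamini-Hochberg values over all genes tested. The SE is the size of the log2 fold change divided by the square root of F. CPM uses TMM-scaled totals. The SE includes the spread between samples, while the floor of 3 counts covers counting error only. Gene positions, exon lengths, overlaps and shared 50-base windows came from GENCODE M21 (GRCm38), which held all 44 TRIM symbols, and promoters from RefSeq (GRCm38.p6).

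Alternatives were DESeq2 1.42.0, other scalings, filters and cutoffs, offsets for GC content and length, a replicate block, and leaving out each sample. The procedure was tested on simulated counts. Members, lists and tests were chosen with earlier results of these data known. Named are called TRIM genes, those called under an alternative, those in the interferon-inducible list and the 5 highest levels per kilobase, and of other lists the 3 called genes with the largest changes at a mean of at least 5 CPM, with Zfp335, Mki67 and Foxp3. Foxp3 was 642 to 1190 CPM in WT and 460 to 472 CPM in KO (log2 fold change -0.88, edgeR adjusted p 0.0122). Without WT replicate 3 it was just under the fold cutoff and so not called (-0.57, edgeR adjusted p 1.27e-06). Pml, Mid1, Mid2, Ifih1 and the remaining TRIM genes were chosen after their values were seen.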

Additional observations from a re-analysis of the deposited data

How the results depend on the processing

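Across 15 other settings, Trim36, Trim16, Trim66 and Trim65 were called in each, and Trim3 and Trim37 in each except glmTreat, which tests against a fold of 1.5. Of 640 pairs of gene and setting, 589 kept their direction and their side of the cutoff, and no called gene changed direction. The number of TRIM genes called was 16 (12 lower) when an adjusted p under 0.05 sufficed without regard to fold, and 4 (1 lower) under glmTreat, against 10 (6 lower) as reported. Over all genes these settings called 5244 (2610 higher, 2634 lower) and 1686 (941 higher, 745 lower), against 3318 (1618 higher, 1700 lower), and of the interferon-stimulated genes outside the family 2 and 0, against 5. Of these genes, 7 had an unadjusted edgeR p under 0.05, and DESeq2 called 4. Leaving out 1 sample gave 8 to 11 TRIM genes and 1 to 25 interferon-stimulated genes, with 25 without WT replicate 3 and 1 in each of the other 5 fits. The median log2 fold change ran from -0.26 to 0.06 over TRIM genes, from -0.36 to 0.03 over interferon-inducible TRIM genes and from -0.05 to 0.92 over interferon-stimulated genes, with the highest value of each without WT replicate 3.

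Genes that were not called and changed direction without single samples were Trim21 (-0.12 to 0.08), Trim23 (-0.09 to 0.13), Trim25 (-0.29 to 0.15), Trim26 (-0.10 to 0.03), Trim30a (-0.34 to 0.35), Trim30c (-0.03 to 2.02), Trim30d (-0.64 to 0.28), Trim33 (-0.19 to 0.04), Trim34b (-0.73 to 0.07), Trim47 (-0.06 to 0.89), Trim59 (-0.13 to 0.15) and Trim67 (-0.59 to 0.48). With offsets for GC content and length Trim13 was at -0.003 and Trim26 at 0.01, and with library totals alone Trim59 was at -0.03. The cause was not tested. Trim62 was also not called with the offsets (-0.52).

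Deviations from the group means were not shared between same-numbered samples (correlations 0.038, 0.040 and -0.012), and the number is only a name. With the replicate block, 9 TRIM genes were called, all among the 10 without it, and 3190 of all genes.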
